A study of Mus musculus with 9 samples.

Results

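The 45 genes described here drive or mark cell division: 17 act in DNA replication during S phase, 14 act in or mark mitosis, and 14 are cyclins, cyclin-dependent kinases, their inhibitors or the transcriptional switch that they control. They were taken as a named list of symbols, and all 45 were found among the 32976 genes of each deposited table after Ensembl identifiers were matched to mouse symbols. Their read counts were followed in 9 RNA-seq libraries, 3 in each of 3 groups. All libraries came from T cells labelled as wildtype, sorted with a tetramer of the GSW11 tumor peptide from CT26.WT tumors, a transplanted mouse colon carcinoma, in mice given antibody clone RMP1-14 against PD-1 on day 3, day 6 and day 9 after implantation. TetHighProg (replicates 1, 2 and 5) held cells of high tetramer staining, called high avidity, from progressing tumors. TetLowReg (replicates 6, 7 and 8) held low avidity cells from regressing tumors, and TetLowProg (replicates 9, 10 and 12) held low avidity cells from progressing tumors. No high avidity group from regressing tumors and no untreated group was analysed here, so avidity alone is compared only within progressing tumors and tumor course alone only within low avidity cells. The labels do not say that the libraries of a group came from separate mice, so the tests measure the spread between these libraries, part of which may be technical. The study speaks of 3 regressing and 3 progressing tumors, so cells of TetHighProg and TetLowProg may have come from the same progressing tumors. Neither labels nor replicate numbers pair them, and the tests treat the groups as independent.

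A T cell that has met its antigen enters the cell cycle when D-type cyclins with Cdk4 or Cdk6 phosphorylate the retinoblastoma protein Rb1, which frees E2F factors to switch on replication genes. In S phase the MCM helicase unwinds DNA that the polymerases copy along the Pcna clamp, and in mitosis the spindle and kinetochore proteins, switched on later from promoters with a cell cycle homology region (CHR), part the chromosomes. Cdkn1a (p21) and Cdkn1b (p27) hold the kinases back, and transcripts of the S phase and mitosis genes are commonly read as signs of dividing cells.

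The promoters of the members carry these control letters unequally by role. RefSeq promoter windows (300 bases, 250 before and 50 after a gene's start, GRCm38.p6) were matched for 37 of the 45 members and searched on both strands for an E2F motif (TTTGGCGC, TTTGCCGC, TTTCGCGC or TTTCCCGC), a CHR motif (TTTGAA or TTCGAA) and CCAAT. An E2F match lay in 7 of 14 S phase members with a window (50%), in 0 of 12 mitosis members and in 2 of 11 cyclin, kinase and inhibitor members (18.2%), against 2.6% of 27025 genes with a window. CHR letters lay in 9 of 12 mitosis members (75%), 3 of 14 S phase members (21.4%) and 2 of 11 of the third group (18.2%), against 21.7% of all genes. CCAAT lay in 71.4%, 83.3% and 54.5% of the members by role, against 41.1% of all genes. These letters are matches in a window and not measured binding. A stretch of 30 bases around the match nearest to the start is given for each S phase member with an E2F match, read along the gene's strand with the match in capitals and the position of the same bases in GRCm39. They are shown because the members that share the motif can then be followed through the counts.
Mcm3, chr1:20890499-20890528, minus strand: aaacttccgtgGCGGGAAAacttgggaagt
Mcm5, chr8:75835977-75836006, plus strand: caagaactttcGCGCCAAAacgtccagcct
Mcm6, chr1:128287471-128287500, minus strand: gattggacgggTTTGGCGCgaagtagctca
Mcm7, chr5:138170111-138170140, minus strand: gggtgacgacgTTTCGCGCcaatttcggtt
Cdc6, chr11:98798828-98798857, plus strand: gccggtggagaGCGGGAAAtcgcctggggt
Cdt1, chr8:123294774-123294803, plus strand: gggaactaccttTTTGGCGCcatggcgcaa
Pola1, chrX:92675881-92675910, minus strand: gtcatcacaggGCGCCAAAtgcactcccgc

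The same stretches around the CHR letters, in capitals, are given for the mitosis members that hold them. Bub1 was the one of the 9 whose match was TTCGAA.
Mki67, chr7:135318189-135318218, minus strand: ccgccgttttggTTTGAAtcgggcgggctg
Top2a, chr11:98915021-98915050, minus strand: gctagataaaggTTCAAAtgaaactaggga
Bub1, chr2:127673748-127673777, minus strand: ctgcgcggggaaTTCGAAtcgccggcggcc
Bub1b, chr2:118428712-118428741, plus strand: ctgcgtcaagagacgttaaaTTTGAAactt
Plk1, chr7:121758676-121758705, plus strand: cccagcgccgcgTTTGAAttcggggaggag
Aurka, chr2:172212441-172212470, minus strand: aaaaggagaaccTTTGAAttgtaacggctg
Cenpa, chr5:30824234-30824263, plus strand: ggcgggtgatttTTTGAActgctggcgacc
Cdc20, chr4:118294541-118294570, minus strand: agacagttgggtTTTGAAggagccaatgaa
Ube2c, chr2:164611808-164611837, plus strand: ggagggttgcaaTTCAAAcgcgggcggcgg

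Pcna, among the S phase members with a window the one found in most libraries, and Cenpa, which with Top2a and Stmn1 was the mitosis member found in most libraries and came first by symbol, are shown also around CCAAT, which reads as ATTGG on the gene's strand. Mcm4 had no window, and the window of Cdk6 held none of the 3 motifs.
Pcna, chr2:132095171-132095200, minus strand: aaccacgggtacgATTGGtccttgaggaga
Cenpa, chr5:30824131-30824160, plus strand: gacctttattctcATTGGtttatctggatg

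Whether a member was found depended strongly on the library. Depth was 16405306 to 36429515 counts on genes, with no order by group, whereas genes with at least 10 counts numbered 599, 1298 and 3181 in TetHighProg, 766, 7234 and 8004 in TetLowReg and 1148, 6443 and 8071 in TetLowProg. TetHighProg 1 and 2, TetLowReg 6 and TetLowProg 10, called the 4 sparse libraries here, had the fewest genes. Mitochondrially encoded genes took 44.5% of gene counts in TetLowReg 7, 14.2% in TetLowReg 8 and 1.36% to 6.07% in the other 7 libraries, and the most abundant gene took 40.2% in TetLowReg 7 and 3.56% to 13.0% elsewhere. CPM and shares of counts are relative to totals that include these genes. Of 10 CD8 T cell markers, at least 10 counts were found for all 10 in TetHighProg 5, TetLowReg 8 and TetLowProg 9 and 12, for 8 in TetLowReg 7 and for 2 to 6 in the sparse libraries. B cell markers reached 10 counts for 5 of 6 genes in TetLowReg 7 and 6 of 6 in TetLowReg 8 and TetLowProg 12, for Ighm alone in TetLowProg 9, and for none in the other 5 libraries. Their summed share of counts was at most 3.95e-06% in TetHighProg, 0% to 0.0965% in TetLowReg and 0% to 0.153% in TetLowProg. At least 10 counts were found for 2 of 4 CD4 T cell and Treg markers in TetLowReg 7 and 8 and for 1 in TetLowProg 12, for 3 of 6 erythroid markers in the same 3 libraries, and for 0 to 4 of 10 macrophage and dendritic cell markers and 0 to 6 of 10 tumor and stroma markers per library. The macrophage and dendritic cell list summed to 0.840% of counts in TetLowReg 7, of which Lyz2 made up 97.9%, while C1qa, Krt8 and Krt18 were at 0 in all 9 libraries. The part of these cells and of the sparse libraries in the values that follow was not tested, except where a value without them is given.

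Most members were found in the rich low avidity libraries, which also held the most protein-coding genes. In TetHighProg 6, 2 and 11 of the 45 members had at least 10 counts, in TetLowReg 3, 24 and 25, and in TetLowProg 29, 5 and 25, in the order of replicates given above. The means were 6.33 ± 4.51, 17.3 ± 12.4 and 19.7 ± 12.9 members (SD, n = 3), so the groups overlapped. Among all 20726 protein-coding genes the share found, in the same order, was 5.75%, 2.65% and 14.1% with high avidity, 3.40%, 34.9% and 31.5% in regressing tumors, and 35.4%, 5.13% and 28.6% with low avidity in progressing tumors. Thinning each library to the smallest total of 16405306 counts left the number of members found within 1 of these values in every library. In bulk RNA, fewer dividing cells and less of these transcripts per cell cannot be told apart.

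**Figure D1:**
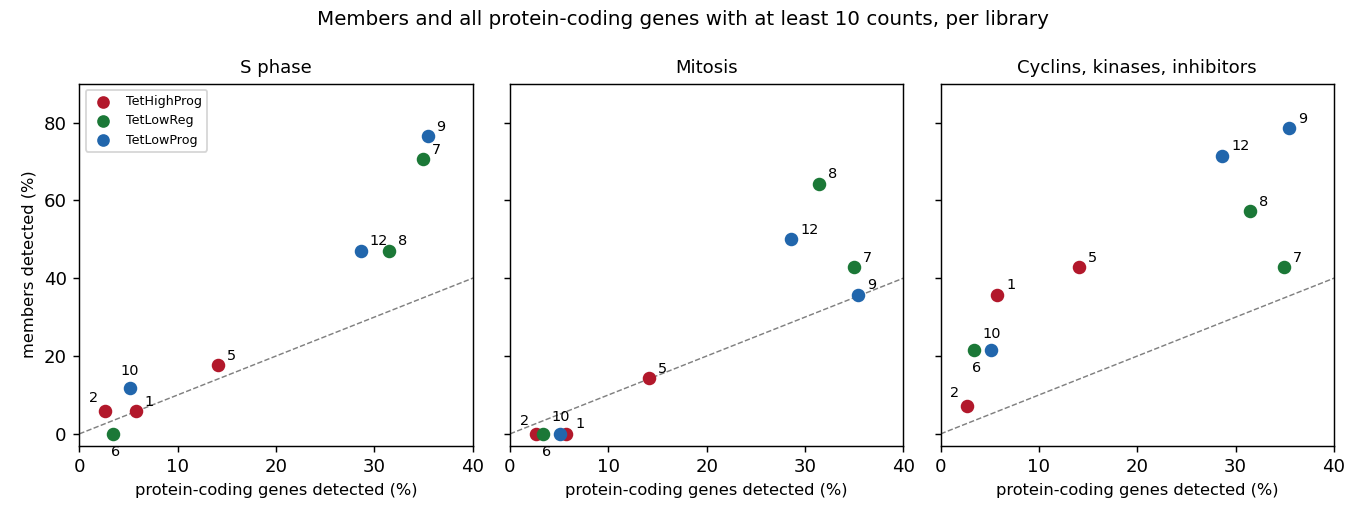
Percent of members with at least 10 counts against percent of protein-coding genes with at least 10 counts, for the 3 groups of members, with 1 point per library, its replicate number beside it and the dashed line marking equal shares. TetLowReg 7 and 8 and TetLowProg 9 and 12 lie at the right, where 28.6% to 35.4% of coding genes were found, and mitosis members were found in none of the 4 sparse libraries.

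Across libraries, 30 of the 45 members (66.7%) reached 10 counts in at least 1 low avidity library and in no TetHighProg library. That pattern was also that of 39.3% of coding genes. In TetHighProg only, 0 members and 0.864% of coding genes reached 10 counts. Only Cdk6 reached 10 counts in all 9 libraries, which 0.796% of coding genes did. Cdc6, Bub1, Plk1 and Ccnb2 reached it in none, as 44.4% of coding genes did. In the 5 rich libraries (TetHighProg 5, TetLowReg 7 and 8, TetLowProg 9 and 12) the number of members found was 11, 24, 25, 29 and 25. In the same order, 14.1%, 34.9%, 31.5%, 35.4% and 28.6% of coding genes were found, so TetHighProg 5 held the fewest of both.

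**Figure D2:**
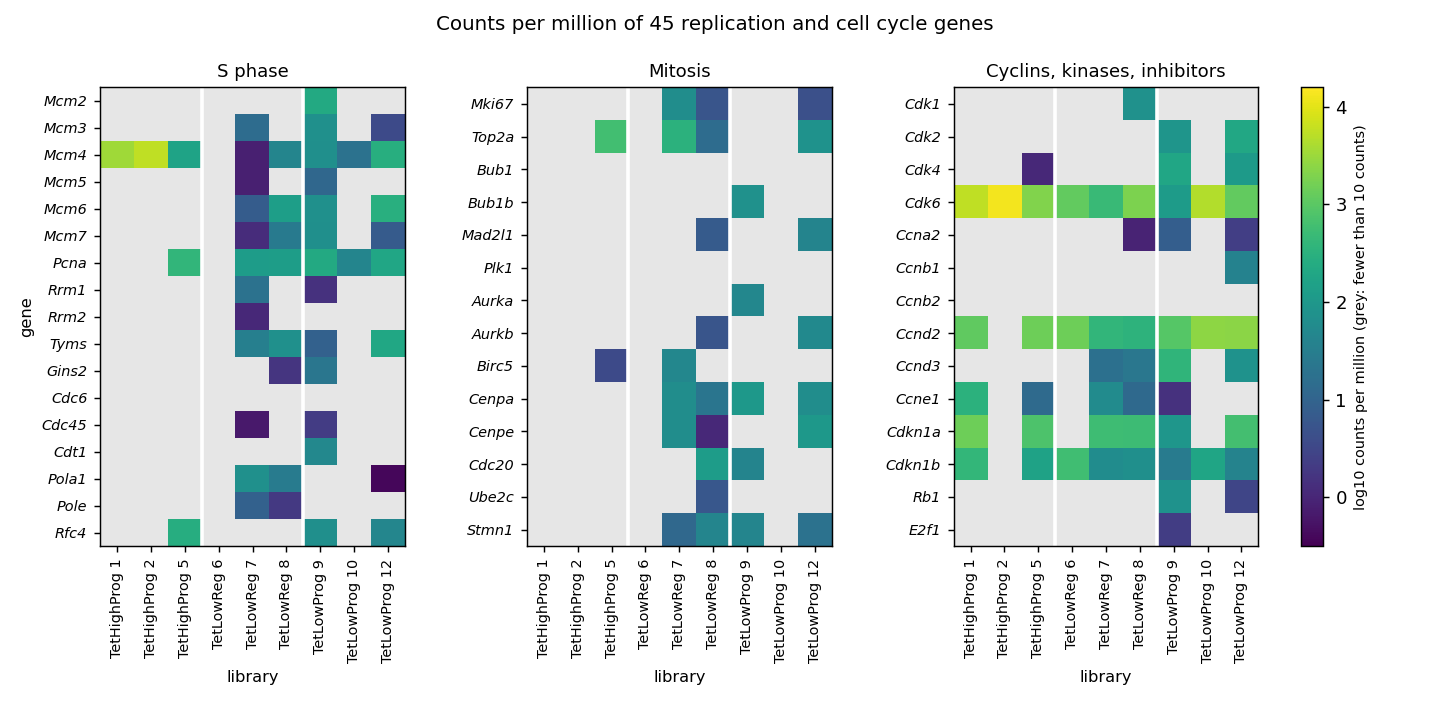
CPM of each member in each library as log10 colors, with grey for fewer than 10 counts and members grouped by role. Mcm4, Cdk6 and Ccnd2 carry color in sparse and rich libraries alike, while most colored cells of S phase and mitosis members lie in TetLowReg 7 and 8 and TetLowProg 9 and 12.

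S phase members were found 1, 1 and 3 at a time of 17 in TetHighProg, 0, 12 and 8 in TetLowReg and 13, 2 and 8 in TetLowProg. The MCM helicase, a ring of the 6 subunits Mcm2 to Mcm7, was not found whole in most of them. All 6 subunits had at least 10 counts in TetLowProg 9 alone, 5 in TetLowReg 7, 4 in TetLowProg 12, 3 in TetLowReg 8, 1 in each TetHighProg library and in TetLowProg 10, and 0 in TetLowReg 6.

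Mcm4 (ENSMUSG00000022673, chr16:15440211-15455264 in GRCm39, minus strand) was the subunit behind the single finds. It had 111043, 144237 and 3745 counts in TetHighProg, 0, 30 and 715 in TetLowReg, and 2503, 479 and 8927 in TetLowProg. That is 3324, 5696 and 165 CPM (counts scaled to a total of 1e6) in TetHighProg against at most 43.6 CPM in TetLowReg, and these 2 groups did not overlap. TetLowProg 12, at 283 CPM, lay above TetHighProg 5. Of all MCM counts, Mcm4 held 100% in TetHighProg 5, 99.999% in TetHighProg 1 and 2, and 3.34% to 48.7% in the low avidity libraries with at least 3 subunits found.

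The other subunits had at most 1 count in any TetHighProg library. Mcm6 had 0, 272 and 2194 counts in TetLowReg and 2644, 0 and 9052 in TetLowProg. Mcm7, which shares its locus with Ap4m1 and Cops6 on the other strand, had 0, 45 and 435 counts in TetLowReg and 2469, 0 and 223 in TetLowProg. Mcm3 had 0, 522 and 2 counts in TetLowReg and 2666, 0 and 115 in TetLowProg. These 3 subunits were thus found in rich low avidity libraries and were at 0 in TetLowReg 6 and TetLowProg 10. Mcm2 had 8124 counts in TetLowProg 9 and 1 count in the other 8 libraries together, and Mcm5 had 30 counts in TetLowReg 7, 433 in TetLowProg 9 and at most 1 elsewhere. Mcm3, Mcm5, Mcm6 and Mcm7 are the subunits whose E2F stretches are printed above.

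Helicase loading and firing factors reached 10 counts in at most 2 libraries each. Cdt1, which loads the helicase, had 1813 counts in TetLowProg 9 and at most 6 elsewhere, and Cdc6, its partner in loading, had 1 count in TetLowReg 7 and 0 elsewhere. Cdc45 and Gins2 belong to the active helicase. Cdc45 had 24 counts in TetLowReg 7, 78 in TetLowProg 9, 1 in TetLowReg 8 and 0 elsewhere, and Gins2 had 27 counts in TetLowReg 8, 808 in TetLowProg 9 and 0 elsewhere. Neither reached 1 count in TetHighProg.

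Beside the helicase, Pcna was the S phase member found most widely, in 6 libraries. It had 0, 0 and 9009 counts in TetHighProg, 0, 4544 and 2143 in TetLowReg, and 8371, 1111 and 5944 in TetLowProg. Its mean CPM was 132 ± 229 for TetHighProg, 85.1 ± 73.8 for TetLowReg and 154 ± 97.7 for TetLowProg (SD, n = 3), and the highest single level, 397 CPM, was that of TetHighProg 5. Rfc4, a subunit of the loader of the clamp, had 6172 counts in TetHighProg 5, 2492 in TetLowProg 9, 1417 in TetLowProg 12 and 0 in the other 6 libraries, all of TetLowReg included. Its locus overlaps Eif4a2 on the other strand, and counts without strand cannot tell these apart.

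The polymerase members Pola1 and Pole were found mainly in TetLowReg 7 and 8, where Rfc4 was at 0. Pola1, the catalytic subunit of the priming polymerase, had 2617 and 469 counts in TetLowReg 7 and 8, 12 in TetLowProg 12 and 0 elsewhere. Pole, of the leading strand polymerase, had 330 and 31 counts in TetLowReg 7 and 8, 2 in TetLowProg 12 and 0 elsewhere. In TetLowReg Pola1 summed to 3086 counts against 12 in TetLowProg, although TetLowReg 6 had 0 counts of either.

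Enzymes of nucleotide supply differed among themselves. Tyms, which makes thymidylate, had 0, 1237 and 1175 counts in TetLowReg, 335, 1 and 6177 in TetLowProg and 0 in TetHighProg. Rrm1 and Rrm2 are the subunits of ribonucleotide reductase. Rrm1 had 675 counts in TetLowReg 7, 54 in TetLowProg 9 and 1 in TetLowReg 8, and Rrm2 had 40 counts in TetLowReg 7 and 2 in TetLowReg 8. TetLowReg 7 was the one library in which both subunits reached 10 counts.

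Mitosis members were found 0, 0 and 2 at a time of 14 in TetHighProg, 0, 6 and 9 in TetLowReg and 5, 0 and 7 in TetLowProg. No mitosis member reached 10 counts in a sparse library. Top2a, which untangles replicated DNA, had 13408 counts in TetHighProg 5, 0, 11868 and 237 in TetLowReg, and 1, 1 and 2528 in TetLowProg. It made up 99.4% of all mitosis counts of TetHighProg 5, the rest being 81 counts of Birc5 and 2 of Aurkb. Mki67, the gene of the Ki-67 antigen used to stain dividing cells, had 0 counts in TetHighProg, 0, 2341 and 89 in TetLowReg and 2, 0 and 142 in TetLowProg. Top2a and Mki67, often read together, thus did not go together in TetHighProg 5, where 13408 counts of the one stood beside 0 of the other.

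The members Cenpa, Cenpe and Stmn1 were at 0 in all of TetHighProg. Cenpa, the histone variant of the centromere, had 0, 2351 and 351 counts in TetLowReg and 3691, 0 and 2039 in TetLowProg. Cenpe, a kinetochore motor, had 0, 2334 and 18 counts in TetLowReg and 0, 0 and 3229 in TetLowProg. Stmn1, which destabilizes microtubules, had 0, 437 and 719 counts in TetLowReg and 1607, 0 and 596 in TetLowProg. Cenpa and Stmn1 were found in the same 4 rich low avidity libraries and in no other.

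Spindle checkpoint and exit genes reached 10 counts in at most 2 libraries each. Bub1b had 2753 counts in TetLowProg 9 and 7 in TetLowReg 7, and its relative Bub1 had 1 count in TetLowReg 8. Mad2l1, another checkpoint gene, had 118 counts in TetLowReg 8 and 1337 in TetLowProg 12, and 0 elsewhere. Cdc20 and Ube2c, which act in the ubiquitin ligase that ends mitosis, had 2099 and 96 counts in TetLowReg 8, where both were found. Cdc20 also had 1488 counts in TetLowProg 9 and 4 in TetLowReg 7.

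Mitotic kinases and their partner were as scattered. Aurka had 1738 counts in TetLowProg 9 and 0 elsewhere. Aurkb had 2 counts in TetHighProg 5, 89 in TetLowReg 8 and 1717 in TetLowProg 12. Birc5 (survivin), the partner of Aurkb, had 1713 counts in TetLowReg 7, 81 in TetHighProg 5, 1 in TetHighProg 1 and 0 in every library where Aurkb reached 10 counts. Plk1 had 1 count in TetLowReg 7 and 0 elsewhere.

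The cyclin, kinase and inhibitor members were the group found most evenly, 5, 1 and 6 at a time of 14 in TetHighProg, 3, 6 and 8 in TetLowReg and 11, 3 and 10 in TetLowProg. Cdk6 (ENSMUSG00000040274, chr5:3391485-3581008, plus strand), a kinase partner of the D cyclins, had 190131, 332183 and 45664 counts in TetHighProg, 25482, 17511 and 31142 in TetLowReg, and 4408, 116158 and 37789 in TetLowProg. These were 5691, 13117 and 2013 CPM in TetHighProg against 1156, 481 and 1898 CPM in TetLowReg, with no overlap, although TetHighProg 5 and TetLowReg 8 lay close. Per 1e6 counts of genes not encoded in the mitochondria, a scale added after seeing the data, TetLowReg 8 stood at 2211 and TetHighProg 5 at 2074, so for Cdk6 the groups then overlapped. TetLowProg spanned 121 to 4620 CPM and overlapped both.

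Ccnd2 (cyclin D2, ENSMUSG00000000184, chr6:127102125-127129156, minus strand) had at least 5712 counts in every library but TetHighProg 2. Its counts were 37315, 1 and 32748 counts in TetHighProg, 32266, 14464 and 5712 in TetLowReg, and 32753, 64258 and 74700 in TetLowProg. The group levels of 853 ± 757, 736 ± 631 and 1943 ± 907 CPM (SD, n = 3) overlapped. Ccnd3 (cyclin D3) followed another course, with at most 1 count in each TetHighProg library, 1, 615 and 385 in TetLowReg and 13754, 0 and 2458 in TetLowProg. Cdk4, the other kinase of the D cyclins, had 25 counts in TetHighProg 5, 6961 and 3618 in TetLowProg 9 and 12, and at most 1 in each of the other 6 libraries, TetLowReg included.

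Cyclins and kinases of later phases were sparse. Cdk2, the kinase of S phase entry, had 3253 and 6625 counts in TetLowProg 9 and 12 and at most 1 elsewhere. Its early partner Ccne1 had 11164, 0 and 305 counts in TetHighProg, 0, 2119 and 209 in TetLowReg and 54, 0 and 0 in TetLowProg, so Ccne1 was low in both libraries where Cdk2 was found. Cdk1, the mitotic kinase, had 1242 counts in TetLowReg 8 and 0 elsewhere. Of its cyclins, Ccna2 had 15 counts in TetLowReg 8, 297 in TetLowProg 9 and 73 in TetLowProg 12, Ccnb1 had 1209 counts in TetLowProg 12, and Ccnb2 had 0 counts in all 9 libraries. No library held Cdk1 and a B cyclin at 10 counts together. Besides Mcm7 and Rfc4, reads of Cdk1 (Ank3), Cdk2 (Pmel), Cdk4 (Marchf9 and Tspan31), Ccna2 (Exosc9), Ccnd2 (9330179D12Rik), Ccnd3 (Bysl), Ccne1 (1600014C10Rik), Rb1 (Lpar6 and Rcbtb2), Pcna (AV099323), Gins2 (Gse1), Cdc45 (Ufd1), Pole (Gm15792), Aurka (Cstf1 and Fam210b), Cdc20 (Elovl1), Ube2c (Tnnc2) and Stmn1 (1700021N21Rik) cannot be told apart without strand from those of the gene in parentheses where the loci overlap on opposite strands.

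Of the kinase inhibitors, Cdkn1b was found in 8 libraries, as many as Ccnd2, and Cdkn1a in 6. Cdkn1a had 48119, 0 and 17472 counts in TetHighProg, 2, 19713 and 8536 in TetLowReg, and 3393, 0 and 19985 in TetLowProg. Cdkn1b had 13584, 0 and 3728 counts in TetHighProg, 12736, 2213 and 1156 in TetLowReg, and 1041, 4568 and 1249 in TetLowProg. Each gene spanned overlapping ranges in the 3 groups, and Cdkn1b at 578 CPM in TetLowReg 6 was its highest level. Rb1, their downstream brake, had 2892 and 94 counts in TetLowProg 9 and 12 and at most 2 elsewhere, and E2f1, the factor Rb1 holds, had 83 counts in TetLowProg 9 and 0 elsewhere.

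**Figure D3:**
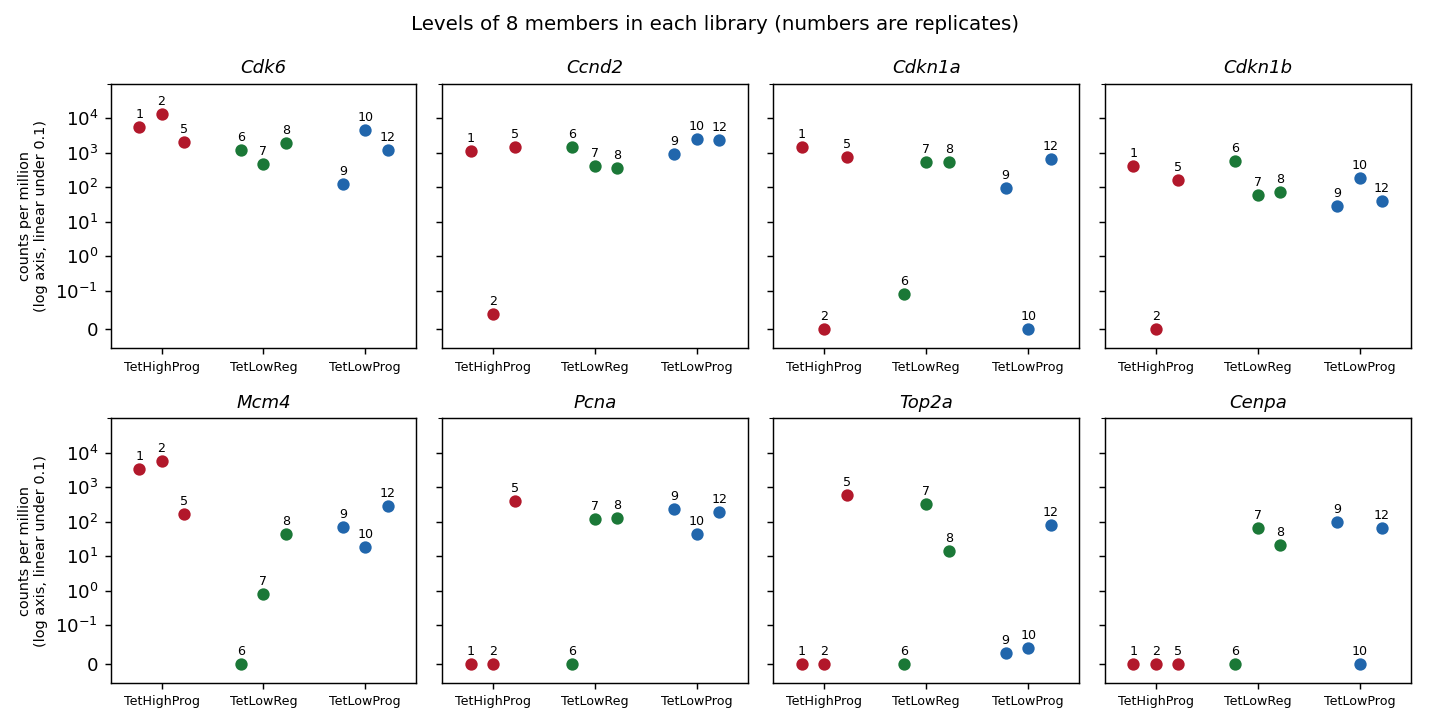
CPM of 8 members by group, with 1 point per library marked by its replicate number, on a log axis that is linear under 0.1. Cdk6 is above 100 CPM in all 9 libraries, Mcm4 of TetHighProg lies above all of TetLowReg, and Cenpa is at 0 in all of TetHighProg.

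As a share of each library, the members' counts did not follow the number of members found. All counts of S phase members summed to 0.332%, 0.570% and 0.0834% of gene counts in TetHighProg, to 0%, 0.0285% and 0.0439% in TetLowReg and to 0.0902%, 0.00633% and 0.101% in TetLowProg. Mcm4 made up nearly the whole sum in TetHighProg 1 and 2. The mitosis members summed to 0.0198% ± 0.0343, 0.0270% ± 0.0291 and 0.0226% ± 0.0198 (SD, n = 3) in TetHighProg, TetLowReg and TetLowProg, which overlapped. The cyclin, kinase and inhibitor members summed to 0.884% ± 0.436, 0.257% ± 0.0886 and 0.465% ± 0.273. With mitochondrial counts left out of the depth, the TetLowReg means were 0.0341% for S phase, 0.0437% for mitosis and 0.316% for cyclin, kinase and inhibitor members, and no group's mean moved by more than 1 SD. Without Cdk6, Ccnd2 and Mcm4, the 45 members summed to 0.146% ± 0.127, 0.115% ± 0.0506 and 0.149% ± 0.110, a set named after the values were seen. Of the 3, Cdk6 and Mcm4 had their highest means in TetHighProg, whereas Ccnd2 had its highest in TetLowProg.

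Levels of different genes were compared as CPM per kilobase of exon. On that scale the highest member was Mcm4 in TetHighProg 1 and 2, at 622 and 1065, with Cdk6 next at 395 and 910. It was Pcna in TetHighProg 5 at 165, Ccnd2 in TetLowReg 6 at 156, Cdkn1a in TetLowReg 7 at 89.5 and Cdk6 in TetLowReg 8 at 132. In TetLowProg 9 Pcna at 96.0 and Ccnd2 at 95.8 were about equal, in TetLowProg 10 Cdk6 led at 320, and in TetLowProg 12 Ccnd2 led at 252. A D cyclin, Cdk6, an inhibitor, Pcna or Mcm4 was thus first in each library, and no mitosis member was.

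The first comparison asked how low avidity cells of regressing tumors differed from high avidity cells of progressing tumors. Avidity and tumor course change together here and cannot be told apart. No member passed the test. The edgeR quasi-likelihood test over 5813 genes, of which 20 were members (7 S phase, 5 mitosis, 8 cyclin, kinase and inhibitor), called 0% of genes and 0 of the 20 members. A call needed an adjusted p below 0.05 and a log2 fold change beyond 2 in either direction. At an unadjusted p under 0.05 there were 1135 genes, 1105 of them higher in TetLowReg, and 9 members, 7 higher and 2 lower. The median fitted log2 fold change was 9.07 for S phase, 13.03 for mitosis and -0.23 for cyclin, kinase and inhibitor members, beside 4.82 for all genes tested. These medians cover only members that passed the filter on counts, and where a group is at 0 they depend on the prior count, so they describe the fit and not a direction of the members. Of the S phase members, Mcm4 had a log2 fold change of -7.99 (SE 3.26, adjusted p = 0.233 by edgeR), which became -2.49 without the 4 sparse libraries, -12.23 without TetLowReg 8 and -19.77 without the 3 libraries with several B cell markers (TetLowReg 7 and 8 and TetLowProg 12). Its summed level in TetLowReg was 0.00313 of that in TetHighProg. Rfc4 stood at -14.04 (SE 6.93) and Mcm6 at 13.63 (SE 6.76), both with the same edgeR adjusted p. Set at a limit of 3 counts over a group at 0, Rfc4 was at least 1892-fold lower and Mcm6 at least 894-fold higher in TetLowReg. All counts of Rfc4 behind that limit came from TetHighProg 5, without which both groups were at 0, and without TetLowReg 8 the limit of Mcm6 was 126-fold and its fitted value 10.57. Of mitosis members, Mki67 (13.10, SE 6.36), Cenpa (13.32, SE 6.66) and Stmn1 (12.39, SE 6.18) were at 0 in TetHighProg, with bounds of at least 881-fold, 979-fold and 419-fold higher. Without the library that held most of the counts these bounds were 62.8-fold for Mki67 and 248-fold for Cenpa (both without TetLowReg 7) and 203-fold for Stmn1 (without TetLowReg 8), and the fitted values were 9.35, 11.33 and 11.26. TetLowReg 6 had 0 counts of Mcm6, Mki67, Cenpa and Stmn1, so without TetLowReg 7 and 8, both with B cell markers, both groups were at 0 and no bound remained. Of the third group, Ccna2 had 6.33 (SE 3.9, adjusted p = 0.274 by edgeR), Ccnd3 had 8.95 (SE 6.08, adjusted p = 0.322 by edgeR) and Cdk6 had -2.89 (SE 2.04, adjusted p = 0.343 by edgeR). All 15 counts of Ccna2 in these groups were from TetLowReg 8, without which both groups were at 0. Ccnd3 came to 0.30 without the 3 libraries with B cell markers, and Cdk6 to -0.21 without the 4 sparse libraries and -1.48 without TetHighProg 2. Other tools and scalings also moved these values: Rfc4 was -26.62 in DESeq2 and -0.99 in limma-voom, Ccna2 was 3.16 in limma-voom, and with poscounts size factors in edgeR Mcm4 was -12.62, Ccnd3 5.03 and Cdk6 -5.17. Libraries of these groups did not overlap for 3 of 44 members with a count, Mcm4 and Cdk6 lower and Ccnd3 higher in TetLowReg, where 2.41% of 17615 genes did not overlap. With mitochondrial counts left out of the depth, Mcm4 and Ccnd3 remained apart and Cdk6 did not, beside 2.44% of 17591 genes. For Ccnd3 this rested on 1 count in TetLowReg 6 against 1 count in deeper libraries.

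Calls for this comparison depended on the tool. DESeq2, the tool of the study, called 12 of 21 members with an adjusted p, 10 of them higher, beside 35.7% of all genes and 34.9% called higher. The 10 were Mcm3, Mcm6, Mcm7, Tyms, Pola1, Pole, Mki67, Cenpa, Stmn1 and Ccnd3, and the 2 called lower were Mcm4 and Rfc4. With poscounts size factors DESeq2 called 8 of 17 members, beside 26.8% of genes, and with these 2 groups fitted alone 9 of 15, beside 34.4%. limma-voom called 11 of 20 members, 10 of them higher, beside 41.5% and 41.3% of genes. The default DESeq2 and the limma-voom calls are 57.1% and 55.0% of the members tested, but a member is tested only if it passes the filter on counts, often through the group where it is high, so the shares are a description.

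The next comparison held the tumor course fixed and asked how low avidity cells differed from high avidity cells in progressing tumors. Again edgeR called 0% of genes and 0 of the 20 members. At an unadjusted p under 0.05 there were 1475 genes, 1443 of them higher in TetLowProg, and 6 members, all 6 higher. Median log2 fold changes were 10.06 for S phase, 11.75 for mitosis and -0.04 for cyclin, kinase and inhibitor members, beside 5.40 for all genes. Mcm6 (14.56, SE 6.98), Tyms (13.83, SE 6.82) and Mcm7 (11.85, SE 5.88) were at 0 in TetHighProg, with bounds of at least 3414-fold, 1901-fold and 786-fold higher. Without TetLowProg 12 the bounds were 1167-fold for Mcm6 and 148-fold for Tyms (fitted values 12.66 and 9.69), and without TetLowProg 9 that of Mcm7 was 107-fold (fitted value 9.50). Cenpa (13.20, SE 6.63), Cenpe (12.85, SE 6.50) and Stmn1 (11.75, SE 6.03) had bounds of at least 1673-fold, 943-fold and 643-fold. All 3229 counts of Cenpe were from TetLowProg 12, so without it both groups were at 0, and without TetLowProg 9 the bounds were 977-fold for Cenpa and 286-fold for Stmn1. The 6 named here and Ccna2 (9.11, SE 4.58, at least 108-fold and 35.0-fold without TetLowProg 9) shared an edgeR adjusted p of 0.193. Ccnd3 had 11.42 (SE 6.67, adjusted p = 0.224 by edgeR) and Ccne1 had -8.54 (SE 5.99, adjusted p = 0.326 by edgeR). The value of Ccne1 was -4.30 without TetHighProg 1, -14.37 without TetLowProg 9 and -4.64 without the 4 sparse libraries. Cenpe was 24.91 in DESeq2 and 7.24 in limma-voom, and Ccnd3 was 6.81 with poscounts size factors. Tyms was the 1 of 44 members whose libraries did not overlap, where 2.68% of 17615 genes did not overlap, and it rested on 1 count in TetLowProg 10. With mitochondrial counts left out of the depth it was still the 1 member, beside 2.67% of 17591 genes.

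DESeq2 called 10 of 21 members here, all higher, beside 44.3% of genes and 44.0% called higher. They were Mcm3, Mcm6, Mcm7, Tyms, Cenpa, Stmn1, Ccna2, Ccnd3, Cdk2 and Cdk4. Poscounts size factors gave 6 of 17, beside 25.5% of genes, and a fit of the 2 groups alone 10 of 17, beside 47.5%. limma-voom called 11 of 20, 10 of them higher, beside 49.9% and 49.6% of genes, with Cdk6 the one lower. The members' shares in these default fits, 47.6% and 55.0%, were near the background. Both comparisons use the same TetHighProg libraries, so their lists are not independent of each other.

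The last comparison asked how low avidity cells of progressing tumors differed from those of regressing tumors. edgeR called 0% of genes and 0 of the 20 members, with 54 genes and 0 members at an unadjusted p under 0.05. Median log2 fold changes were 0.93 for S phase, -0.64 for mitosis and 0.85 for cyclin, kinase and inhibitor members, beside 0.35 for all genes, again over members that passed the filter. Members below the filter went both ways, most of them on the counts of 1 or 2 libraries. Among S phase members the summed level in TetLowProg was 0.00313 of that in TetLowReg for Pola1 and 0.0643 for Rrm1, but 243 times as high for Cdt1 and 24.1 times for Gins2. Among mitosis members it was 317 times as high for Bub1b and 15.5 times for Aurkb, while Birc5 was at least 709-fold lower. With library sizes in place of TMM factors the median of all genes shifted to 1.23, that of the mitosis members to 0.28, and 3 of the 5 mitosis members were then higher, so their direction depended on the scaling. The members of smallest p were Rfc4 (12.66, SE 6.60), Mcm4 (2.68, SE 2.56) and Mcm3 (0.99, SE 4.01) for S phase, Mki67 (-4.74, SE 4.83), Top2a (-2.91, SE 4.19) and Stmn1 (-0.64, SE 4.14) for mitosis, and Cdk4 (11.49, SE 6.62), Ccne1 (-6.93, SE 5.58) and Ccna2 (2.78, SE 3.72) for the third group, all with an adjusted p of 1 in edgeR. For Stmn1 the sign turned to 0.28 with library sizes and 0.79 in DESeq2, and it was -1.21 with poscounts size factors. Mcm3 was 0.24 with poscounts size factors, 2.36 in limma-voom and 2.54 with library sizes, Mcm4 was 4.06 in limma-voom, and Ccna2 was 4.41 and Rfc4 26.29 in DESeq2. Single libraries moved these values widely: Mcm4 was 7.36 without TetLowReg 8 and 1.27 without TetLowProg 12, Mki67 was -0.91 without TetLowReg 7 and -10.48 without TetLowProg 12, Ccne1 was -4.01 without TetLowReg 7 and -12.94 without TetLowProg 9, and Ccna2 was 9.46 without TetLowReg 8 and 1.85 without TetLowProg 9. Mcm3 ranged from -2.21 without TetLowProg 9 to 8.32 without TetLowReg 7, Top2a from -12.46 without TetLowProg 12 to 1.81 without TetLowReg 7, and Stmn1 from -1.34 without TetLowReg 6 to 0.81 without TetLowReg 8. Rfc4 was at least 1049-fold higher in TetLowProg (624-fold without TetLowProg 9), and the libraries of 0 of 44 members were apart, where 1.55% of 17615 genes were (0 members and 1.39% of 17591 genes with mitochondrial counts left out). DESeq2 called Rfc4, Cdk2 and Cdk4 higher, 3 of 19 members beside 1.87% of genes (1 of 20 beside 0.544% with poscounts size factors, 1 of 18 beside 0.300% on the 2 groups alone), and limma-voom called 0 of 20 beside 0% of genes. Both Cdk2 and Cdk4 had high counts in TetLowProg 9 and 12 and at most 1 count in every TetLowReg library. TetLowProg 10 had 1 count of Cdk2 and 0 of Cdk4 and Rfc4, so for all 3 genes the libraries of the groups overlapped. As before, a member is tested only if it passes the filter on counts, so these shares are a description.

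**Figure D4:**
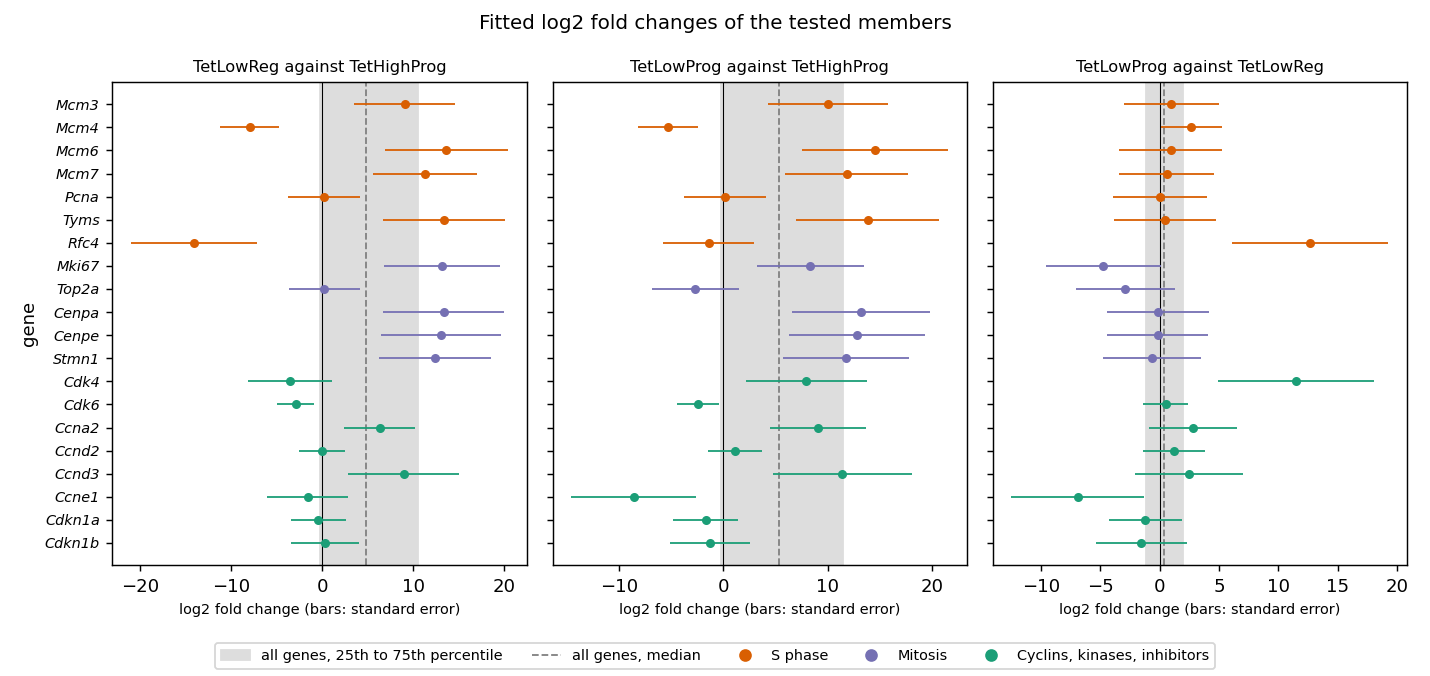
Fitted edgeR log2 fold changes of the 20 tested members in the 3 comparisons, with bars of 1 standard error, a grey band from the 25th to the 75th percentile of all tested genes and a dashed line at their median. In the comparisons with TetHighProg the median of all genes lies at 4.82 or 5.40, while Mcm4, Rfc4, Cdk6, Ccne1 and Cdkn1a lie below 0 in both.

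Values without the libraries that stood apart were as follows. Leaving out TetLowReg 7 and 8 and TetLowProg 12, the 3 libraries with several B cell markers, edgeR still called 0 members in each comparison, with 1, 0 and 0 of 31 members at an unadjusted p under 0.05, beside 60, 84 and 20 of 8828 genes. TetLowReg 6 alone then stood for its group and is assumed to vary like the other groups, and its median fold change against TetHighProg over 31 tested members was 0, since most were at 0 on both sides. In TetLowProg 9, where Ighm was the only B cell marker at 10 counts, 29 members were still found, 13 of them S phase members. Without the 4 sparse libraries, edgeR tested 41 members and called 0, with 4, 4 and 6 at an unadjusted p under 0.05, beside 1011, 1041 and 484 of 12933 genes, of which it called 3, 3 and 0. TetHighProg 5 alone then stood for its group and is assumed to vary like the others, which kept TetLowReg 7 and 8 and TetLowProg 9 and 12.

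Other genes of the pathway were also found in greatest number in the rich low avidity libraries. Of 120 more genes listed by role, 119 were matched. At least 10 counts were found for 9.67 ± 5.86 of them in TetHighProg, 40.7 ± 33.5 in TetLowReg and 37.7 ± 26.7 in TetLowProg (SD, n = 3). Unlike the mitosis members, some other mitosis genes reached 10 counts in every sparse library. Of 40, these were 4 and 2 in TetHighProg 1 and 2, 1 in TetLowReg 6 and 3 in TetLowProg 10. Smc4 had the most counts of that list in each of these libraries. edgeR called none of the 119 genes. At an unadjusted p under 0.05 in TetLowReg against TetHighProg, 6 of 22 tested other S phase genes were higher, 5 of 14 other mitosis genes were higher, and 3 were higher and 1 lower of 13 other cyclin, kinase and inhibitor genes, beside 1135 of all 5813 genes. In TetLowProg against TetHighProg these were 8 higher and 1 lower, 3 higher and 4 higher, beside 1475 of 5813, and in TetLowProg against TetLowReg 0 in each list, beside 54. By role, DESeq2 called 10 of 17, 7 of 10 and 6 of 12 genes with an adjusted p in the first comparison, beside 35.7% of all genes. In the next it called 12 of 18, 4 of 10 and 7 of 13, beside 44.3%, and in the last 0 of 17, 1 of 8 and 1 of 11, beside 1.87%. As with the members, these are genes that passed a filter on counts, so the shares are a description. Their median log2 fold changes against TetHighProg were 8.93, 9.00 and 9.05 in TetLowReg and 10.17, 4.59 and 7.35 in TetLowProg, by role.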

How the data were processed

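RNA of tetramer-sorted T cells was sequenced in 9 libraries of 3 groups. The labels and methods describe full-length cDNA (Smart-seq2) amplified for 22 cycles, with no molecular identifiers, and tagmented libraries. The deposited values are raw counts of reads per gene, which the authors made with STAR 2.7.6a on GRCm39. featureCounts is also named, the tables have STAR's layout, and the annotation release is not given in the sources used here. The unstranded counts were used; the 2 columns of strand-specific counts in each table were not used, and 4 summary lines per table were left out. Of 32976 identifiers, 28645 matched GENCODE M39, which gave symbols and coordinates. Groups came from the titles.

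Counts were tested with edgeR 4.0.16 in R 4.3.3 (quasi-likelihood, TMM factors 0.600 to 1.82, default filter on low counts, 3 groups in one model, prior count 0.125, two-sided), with p-values adjusted by Benjamini-Hochberg over all genes tested. DESeq2 1.42.0, limma 3.58.1 (voom with sample weights), other scalings and filters, and fits without single libraries were alternatives. The tests were tested on simulated data. Genes were called found at 10 counts. Limits for groups at 0 were 3 counts over the group, and ratios used summed counts over summed depth; both cover counting error only. Fitted fold changes of groups at 0 depend on the prior count.

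The members and lists were chosen with earlier results of these data known. Every member is named with its counts, and fold changes are given for the 3 tested members of each role with the smallest p in each comparison. Sequences were chosen by the number of libraries with 10 counts and, for the E2F and CHR stretches, after the motif counts were seen. Figures were drawn with Python 3.11.15 and matplotlib 3.10.9.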

Additional observations from a re-analysis of the deposited data

How the results depend on the processing

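edgeR called 0 of the members in each of the 3 comparisons under every filter, scaling and left-out library tried (lowest 0, highest 0). With a common dispersion of 8.12 between libraries, that count is no sign of stability. Other tools called some. In TetLowReg against TetHighProg DESeq2 called 12 members and limma-voom 11. With poscounts size factors DESeq2 called 8 and on the 2 groups alone 9. In TetLowProg against TetHighProg it called 10, and 6 and 10 under these settings, and limma-voom 11. In TetLowProg against TetLowReg DESeq2 called 3, and 1 and 1. The cause was not tested. Of the named fold changes, 8 turned sign, all in TetLowProg against TetLowReg. Leaving out 1 library at a time, that of Mcm3 ranged from -2.21 (without TetLowProg 9) to 8.32, that of Top2a from -12.46 to 1.81 (without TetLowReg 7) and that of Stmn1 from -1.34 to 0.81 (without TetLowReg 8). Stmn1 was 0.28 with library sizes and 0.79 in DESeq2. Without the 3 libraries with B cell markers, chosen after seeing the data, Top2a was 2.94, Stmn1 12.04 and Ccne1 7.15. Members found per TetHighProg library averaged 11 without the sparse libraries, a setting added for this value after seeing the data, where TetHighProg 5 alone remained. No paired analysis was possible because the groups share no replicate numbers, although TetHighProg and TetLowProg may share progressing tumors. Thinning to 1 depth changed the number of members found by at most 1 per library, and 3 libraries per group and the 4 sparse libraries limit every comparison.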
